A study of Mus musculus with 2 samples.

Results

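The BCL2 family regulators of apoptosis were examined in colonies and organoids grown in culture from mouse mammary basal cells. The 10 members, Bcl2, Bcl2l1, Mcl1, Bcl2a1b, Bax, Bak1, Bid, Bbc3, Pmaip1 and Bcl2l11, were taken by gene name from the 49492 genes of the count table, and each name matched 1 gene. Basal cells had been sorted by flow cytometry from mammary glands of adult wild-type mice, with CD45-positive blood cells gated out, and embedded in a 3D matrix gel. The methods give an age of 8 to 10 weeks for the mice whose glands were dissociated. The control library (ctrl) came from basal cells grown alone with no treatment, and the M2 library from basal cells that shared their wells for 11 to 14 days with bone marrow-derived macrophages polarised towards an M2-like state with Il-4 and Il-13. How long this ctrl culture in particular was grown is not stated, so a difference in culture age and the co-culture cannot be told apart. The macrophages sat in a porous insert rather than in the gel, and the medium of both cultures held EGF and the insulin, transferrin and selenium supplement. The purpose was to learn how macrophages act on mammary basal cells. Each group holds 1 library, and how many mice or wells gave its RNA is not stated.

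Proteins of the BCL2 family decide whether the outer mitochondrial membrane of a stressed cell is opened, a step that releases cytochrome c and leads to caspase activation. Prosurvival members hold the effectors Bax and Bak1, which form the pores, in check. The BH3-only members are sensors of damage or of lost growth signals, and they bind the prosurvival proteins or activate the effectors directly. In the mammary gland this balance is known for its part in the clearing of the duct lumen and in the involution that follows lactation.

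The ctrl library held 26912610 reads in annotated genes and the M2 library 29413844 reads, and mitochondrial genes took 4.83% and 4.11% of them. The basal markers Krt14, Krt5 and Myh11 had 81991, 56383 and 28173 reads in ctrl and 68968, 83619 and 28442 in M2. The luminal markers Krt8, Epcam and Krt18 had 29888, 20919 and 14001 reads in ctrl and 36348, 22821 and 14225 in M2, so that transcripts of both epithelial layers were present in both libraries. Not all cell type markers were level between the libraries, however. Of 10 luminal markers 3 were at least 2-fold lower in M2 and 0 higher. Among all genes with at least 10 reads over both libraries, 7.82% were lower by that measure and 9.53% higher. The 3 luminal markers were Kit (15110 and 4973 reads), Foxa1 (2443 and 873 reads) and Elf5 (5704 and 2776 reads). Of 10 basal markers Oxtr was lower (8324 and 1920 reads) and Krt17 higher (6051 and 16592 reads). Of 8 fibroblast markers 4 were at least 2-fold lower in M2 and 1 higher. Postn had 72824 and 71795 reads, Col6a3 9433 and 523, and Col1a2 4463 and 1457, whereas Dcn had 51 and 157. By flow cytometry, the study reports mostly luminal cells in colonies of both groups, with a smaller luminal and a larger basal share in M2. The values below thus belong to mixed epithelial cultures and not to basal cells alone. A difference in the share of a cell type and a difference in RNA per cell cannot be told apart in such bulk libraries. The part of cell composition in the values below was not tested. Because there were no replicates, none of the differences could be compared with the spread between cultures. The intervals cover counting error only, and they compare the 2 libraries and not the conditions.

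Bcl2a1b is a prosurvival member best known from blood cells and as a target of NF-κB, and the mouse genome holds several nearly identical copies of it. The coding start of the 3 full-length copies is shown because it holds positions by which reads can be assigned to Bcl2a1b. In GENCODE release M21, on GRCm38, the coding part of the first exon has 420 bases in each of these copies, and 11 of its positions differ between them. The first 120 coding bases hold 7 of those positions, which are in capitals. This stretch was picked for holding the most such positions, and the rest of the coding part differs less. A capital marks a difference between any of the copies. Bcl2a1b differs from both others at the last T and the last A among its capitals. At its earlier capitals it shares the base with Bcl2a1a or Bcl2a1d.

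Bcl2a1a (chr9:88957051-88957170, plus strand): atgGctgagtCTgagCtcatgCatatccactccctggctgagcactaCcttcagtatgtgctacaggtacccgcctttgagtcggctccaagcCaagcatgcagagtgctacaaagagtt
Bcl2a1b (chr9:89199360-89199479, plus strand): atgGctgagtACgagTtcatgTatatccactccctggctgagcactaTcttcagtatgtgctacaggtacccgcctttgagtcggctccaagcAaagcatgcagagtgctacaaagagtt
Bcl2a1d (chr9:88731600-88731719, minus strand): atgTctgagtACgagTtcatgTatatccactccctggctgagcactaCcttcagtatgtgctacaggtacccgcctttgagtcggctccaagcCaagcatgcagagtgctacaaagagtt

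Over the whole transcript Bcl2a1b was 99.1% identical to Bcl2a1d and 98.2% identical to Bcl2a1a. Of all stretches of 100 bases in the Bcl2a1b transcript, 31.1% also occur letter for letter in another copy, and of stretches of 150 bases 14.2% do. The read length is not given in the sources used here. Besides, 49.1% of the exon bases of Bcl2a1b also belong to Gm29094 on the same strand, a gene with 141 reads in ctrl and 108 in M2, and reads there may have been left uncounted or given to the other gene. The counts of the single copies are therefore uncertain.

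To ask how the members stood against each other, levels were expressed as reads per kilobase of exon and per 1000000 reads of the library (RPKM), computed here from the counts. Mcl1, a short-lived prosurvival protein on which mammary epithelium is known to depend, was the most abundant member in both libraries. Its level was 139 RPKM in ctrl and 108 RPKM in M2. The pore former Bak1 followed with 30.3 and 48.3 RPKM. In ctrl the next levels were those of Bax at 16.3 RPKM and Bcl2l1 at 12.4 RPKM. Bcl2l11 at 5.95 RPKM and Bid at 5.88 RPKM came next and did not differ beyond their intervals. Bbc3 at 4.11 RPKM, Pmaip1 at 3.04 RPKM, Bcl2 at 2.27 RPKM and Bcl2a1b at 0.0446 RPKM closed the order.

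In M2 the order differed mainly by the place of Pmaip1. It held rank 8 of 10 in ctrl and rank 3 in M2, at 32.3 RPKM (95% Poisson interval 31.1 to 33.6), above Bax at 21.8 RPKM. Bcl2l1 at 10.69 RPKM and Bid at 10.68 RPKM could not be separated in M2, nor could Bcl2l11 at 4.80 RPKM and Bbc3 at 4.75 RPKM. Bcl2 at 3.63 RPKM and Bcl2a1b at 0.807 RPKM remained at the lower end. Apart from Bcl2a1b, the members lay between percentile 39.9 and 98.3 of the levels of all genes tested in ctrl. Mcl1 lay at percentile 98.3 of levels in ctrl and 97.5 in M2, whereas Pmaip1 lay at percentile 45.6 and 90.5.

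**Figure D1:**
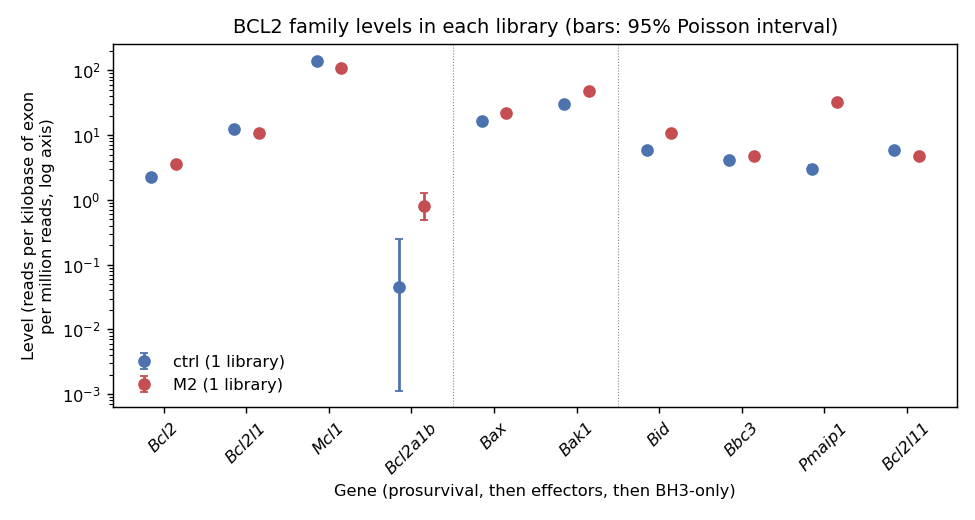
Level of each family member in the ctrl library (blue) and the M2 library (red), in RPKM on a log axis; bars are 95% Poisson intervals, each point is 1 library, and bars not visible are smaller than the point. Mcl1 is highest in both libraries at 139 and 108, and Pmaip1 is the abundant member with the widest gap, at 3.04 and 32.3.

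To compare the libraries, the log2 difference of M2 over ctrl was computed for each gene, and a gene is called higher or lower here when it was at least 2-fold apart. All 10 members reached the minimum of 10 reads over both libraries, but Bcl2a1b did so only through its reads in M2. Among the members 2 were called higher in M2, 0 lower and 8 neither. Among the 19233 genes tested, 9.53% were called higher and 7.82% lower, and at that share a list of 10 genes holds about 1 higher gene, so the count of 2 is not read as a property of the family. The median log2 difference of the members was 0.55, against -0.0032 over all genes tested, where the middle part ran from -0.32 to 0.35.

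Pmaip1 encodes Noxa, a BH3-only protein that binds Mcl1 and is known to be transcribed in response to p53 and to other kinds of stress. Pmaip1 (chromosome 18, 66458604 to 66465550) had 221 reads in ctrl and 2465 reads in M2. It was 10.6-fold higher in M2, which gave a log2 difference of 3.40 (95% interval 3.21 to 3.62), which put it at percentile 99.0 of all genes tested. Its exons overlap no other gene of the table. In edgeR's exactTest its adjusted p was 1.55e-11 when the biological coefficient of variation was set to 0.2, and 0.0182 when it was set to 0.4. These values rest on a spread that was assumed and not measured. Of all genes tested 5.01% were called higher at 0.2 and 0.91% at 0.4.

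Bcl2a1b (chromosome 9, 89199209 to 89207827) had 1 read in ctrl and 19 reads in M2. The ratio of the scaled counts was 18.1, with a 95% interval of 2.88 to 752, so that the size of the difference is poorly known. With 1 read added to each count, as in all log2 differences here, the difference was 9.53-fold, or 3.25 on the log2 scale. Among the copies compared above, Bcl2a1d had 12 and 34 reads and Bcl2a1a 0 and 6 reads, and Bcl2a1c had no read in either library. Summed over the 4 copies there were 13 reads in ctrl and 59 in M2, a 4.08-fold difference (log2 2.03, 95% interval 1.23 to 3.10). Since Bcl2a1 genes are expressed in blood cells, the markers of these cells were counted. Of 15 macrophage markers 5 had 0 reads in both libraries, among them Ptprc, Adgre1 and Tyrobp, and the summed level of the list was 10.3 counts scaled to 1000000 reads (CPM) in ctrl and 12.0 CPM in M2. The macrophage markers with the most reads were Cd68 (170 and 165 reads), Csf1r (94 and 92 reads) and Aif1 (3 and 40 reads). Cd68 and Csf1r were nearly equal between the libraries and carry the sum. Of the 5 tested macrophage markers 3 were called higher in M2, beside 9.53% of all genes tested. They were Aif1, Itgam (3 and 9 reads) and Cd163 (2 and 30 reads), a marker of M2-like macrophages. Each reached the minimum of 10 reads only through its reads in M2, so nothing is read from this count. The interval of the log2 difference of Itgam included 0 (-0.49 to 4.04). Other listed macrophage markers had few reads in both libraries, with 1 and 5 for Mrc1, 5 and 2 for Ctss and 3 and 1 for Lyz2. The part of macrophage RNA in the Bcl2a1b counts was not tested. Of 8 neutrophil markers 5 had 0 reads in both libraries, among them Ly6g and Csf3r, while S100a8 had 1 and 44 reads and S100a9 1 and 47 reads. The summed level of that list was 0.0728 and 3.19 CPM, nearly all of it from S100a8 and S100a9. Both reached the minimum of 10 reads only through their reads in M2, so nothing is read from this sum. The 8 lymphocyte markers summed to 0.692 and 1.01 CPM.

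The other prosurvival members were less than 2-fold apart. Bcl2 (chromosome 1, 106538178 to 106714274), which gave the family its name, had 571 reads in ctrl and 958 in M2, which gave a log2 difference of 0.68 (0.53 to 0.83). Bcl2l1 (chromosome 2, 152780668 to 152831728), which encodes Bcl-xL, had 1562 and 1413 reads, a log2 difference of -0.21 (-0.32 to -0.11). Counts per gene do not separate its long prosurvival from its short proapoptotic splice form. Mcl1 (chromosome 3, 95658788 to 95663176) had 13076 and 10679 reads, a log2 difference of -0.36 (-0.40 to -0.32). Bcl2 thus stood higher in M2 and the other 2 stood lower, each by more than counting error and each by less than 2-fold.

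Both effectors had more reads in M2, again less than 2-fold. Bak1 (chromosome 17, 27019810 to 27029009), which resides in the mitochondrial membrane, had 2001 reads in ctrl and 3349 in M2, which gave a log2 difference of 0.67 (0.59 to 0.75). Bax (chromosome 7, 45461697 to 45466898), which moves there from the cytosol, had 706 and 992 reads, a log2 difference of 0.42 (0.28 to 0.56). Some exon bases of these genes are shared with a neighbour, namely 14.8% of Bak1 with Ggnbp1 on the opposite strand and 12.2% of Bax with another gene model on the same strand. The use of strand in counting is not stated, so such reads cannot be assigned with certainty.

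The BH3-only members did not move alike. Bid (chromosome 6, 120891930 to 120916853), which caspases cut to link death receptors with mitochondria, had 573 reads in ctrl and 1093 in M2. Its log2 difference of 0.86 (0.72 to 1.01) was the largest among the members that were not called. Bid shares 17.7% of its exon bases with Bcl2l13 on the opposite strand, a gene with 1377 and 1581 reads. Bbc3 (chromosome 7, 16308393 to 16318205), which encodes the p53 target Puma, had 240 and 291 reads, and its log2 difference of 0.21 had an interval that included 0 (-0.04 to 0.46). Bcl2l11 (chromosome 2, 128126038 to 128162547), which encodes Bim, the BH3-only protein known from the clearing of the mammary lumen, had 1312 and 1110 reads, a log2 difference of -0.31 (-0.43 to -0.19). The 4 BH3-only genes thus ranged from -0.31 to 3.40 on the log2 scale.

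**Figure D2:**
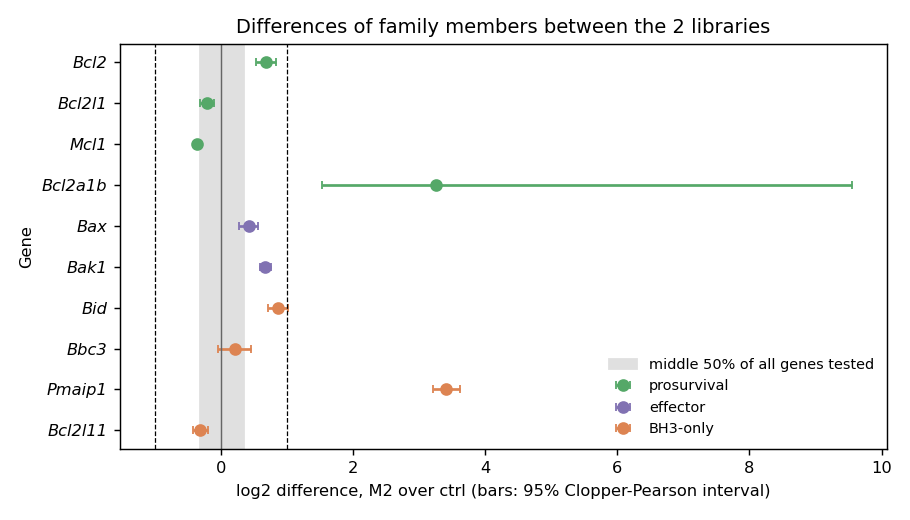
Log2 difference of M2 over ctrl for each family member, coloured by class, with 95% Clopper-Pearson intervals; the grey band holds the middle 50% of all genes tested and the dashed lines mark a 2-fold difference. Pmaip1 at 3.40 and Bcl2a1b at 3.25, the latter with a wide interval, lie beyond 2-fold, and the other 8 members lie between -0.36 and 0.86.

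To describe the balance of the family, levels were summed by class. The prosurvival class (Bcl2, Bcl2l1, Mcl1 and Bcl2a1b) summed to 154 RPKM in ctrl and 124 RPKM in M2, which gave a log2 difference of -0.32 (95% interval -0.35 to -0.28). Mcl1 made up 90.4% of that sum in ctrl and 87.8% in M2, and without Mcl1, an alternative added after its values were seen, the sums were 14.7 and 15.1 RPKM, a log2 difference of 0.040 (-0.05 to 0.13). The effector class (Bax and Bak1) summed to 46.6 and 70.1 RPKM, a difference of 0.59 (0.52 to 0.66). The BH3-only class summed to 19.0 RPKM in ctrl and 52.6 RPKM in M2, a difference of 1.47 (1.39 to 1.55). Pmaip1 made up 16.0% of the BH3-only sum in ctrl and 61.5% in M2. Without Pmaip1, likewise added afterwards, the sums were 15.9 and 20.2 RPKM and the difference was 0.34 (0.25 to 0.44). The larger BH3-only sum in M2 was thus mostly Pmaip1. As a share of all 10 members, prosurvival transcripts were 70.1% in ctrl and 50.2% in M2, effectors 21.2% and 28.5%, and BH3-only transcripts 8.65% and 21.3%.

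**Figure D3:**
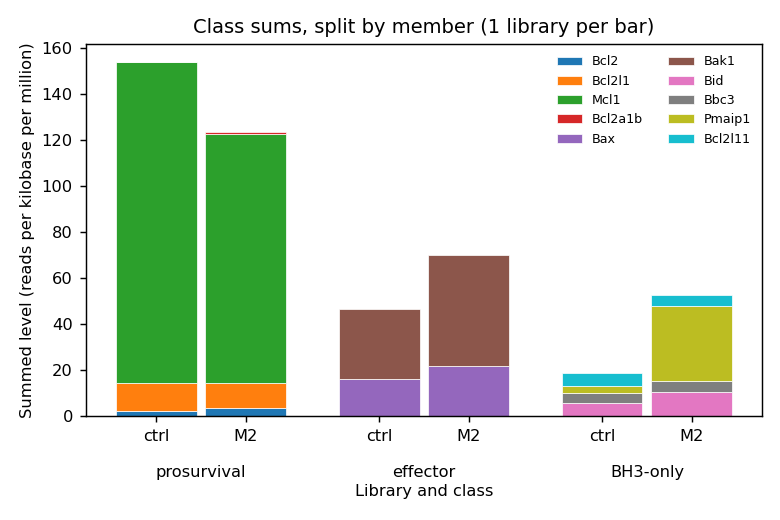
Summed levels of the prosurvival, effector and BH3-only classes in each library, in RPKM, stacked by member; each bar is 1 library. Mcl1 fills most of the prosurvival bars, and Pmaip1 fills 16.0% of the BH3-only bar in ctrl and 61.5% in M2.

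Ratios within a library do not depend on the scaling between libraries. Noxa is a binding partner of Mcl1, and per length there were 0.0218 Pmaip1 reads for each Mcl1 read in ctrl and 0.298 in M2, so that the ratio was 13.7 times as large in M2 (95% interval 11.9 to 15.8). The ratio of Mcl1 to Bak1, which Mcl1 restrains, was 4.60 in ctrl and 2.25 in M2, 0.488 times as large (0.459 to 0.519). The ratio of Bcl2l1 to Bax was 0.760 and 0.490, 0.644 times as large (0.570 to 0.727). In contrast, the ratio of Bcl2 to Bax, a common measure of the balance, was 0.139 and 0.166, 1.19 times as large in M2 (1.03 to 1.38). Bcl2 and Bcl2l1 thus shifted in opposite directions against the same effector. The ratio of Bbc3 to Bcl2l1 was 0.332 and 0.445, 1.34 times as large (1.11 to 1.62), and that of Bcl2l11 to Mcl1 was 0.0427 and 0.0442, with an interval that included no change (0.952 to 1.13). These ratios concern transcripts and not proteins.

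To place the members among other genes of cell death, 7 lists of 94 genes were compared in the same way. Of the 85 genes tested 10 were called higher in M2 and 2 lower, that is 11.8% and 2.35%, against 9.53% and 7.82% of all genes. The median log2 difference over these genes was 0.16.

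Further genes of the BCL2 family and its BH3-like relatives went both ways. Of 13 tested, 3 were called higher and 1 lower, with a median of 0.18. Bnip3, a BH3-like mitophagy receptor that is known to be raised by hypoxia, had 463 reads in ctrl and 2279 in M2, which gave a log2 difference of 2.23 (2.09 to 2.38). Its relative Bnip3l had 3175 and 5831 reads, a difference of 0.81. Bcl2l15 had 414 and 962 reads, a difference of 1.14 (0.98 to 1.32), and the third gene called higher was Bcl2a1d. Bik, a BH3-only protein of the endoplasmic reticulum, had 229 and 100 reads, a difference of -1.26 (-1.62 to -0.92). The autophagy gene Becn1 had 3610 and 3339 reads, a difference of -0.18. The prosurvival Bcl2l2 (2309 and 2016 reads), the effector Bok (109 and 166 reads) and the BH3-only genes Bad (892 and 913 reads) and Bmf (206 and 321 reads) were less than 2-fold apart.

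Downstream of the mitochondria, 0 of 11 genes of the apoptosome and caspase list were called in either direction, with a median of 0.23. Apaf1, the scaffold of the apoptosome, had 295 reads in ctrl and 606 in M2, which gave a log2 difference of 0.97 (0.77 to 1.18), just under the 2-fold threshold. Cycs, which encodes cytochrome c, had 2645 and 3545 reads. Among the inhibitor of apoptosis proteins (IAPs) and their antagonists 3 of 9 genes were called higher and 0 lower, while the median was -0.08. Birc3, an NF-κB target that restrains death receptor signalling, had 282 and 992 reads, a difference of 1.74 (1.55 to 1.94). Birc5, which encodes Survivin and acts in cell division as well, had 382 and 1017 reads, a difference of 1.34 (1.17 to 1.52). The third was Naip6 with 10 and 26 reads. The most abundant genes of the list, Birc6 (4965 and 4919 reads) and Xiap (2325 and 2182 reads), had differences of -0.08 and -0.16.

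In the death receptor and necroptosis list 4 of 13 genes were called higher and 0 lower, with a median of 0.35. Ripk3, the kinase of necroptosis, had 18 reads in ctrl and 116 in M2, which gave a log2 difference of 2.55 (1.90 to 3.42), and its substrate Mlkl had 336 and 742 reads, a difference of 1.07 (0.89 to 1.26). Tnfsf10, the death ligand TRAIL, had 611 and 1913 reads, a difference of 1.58 (1.45 to 1.71). The receptor Fas had 278 and 603 reads, a difference of 1.04 (0.84 to 1.26), which fell below 2-fold when libraries were scaled by total reads. Casp8, which cuts Bid, had 575 and 1136 reads, a difference of 0.91. Its inhibitor Cflar (3294 and 4415 reads) and the TNF receptor Tnfrsf1a (3270 and 2841 reads) had differences of 0.35 and -0.27.

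**Figure D4:**
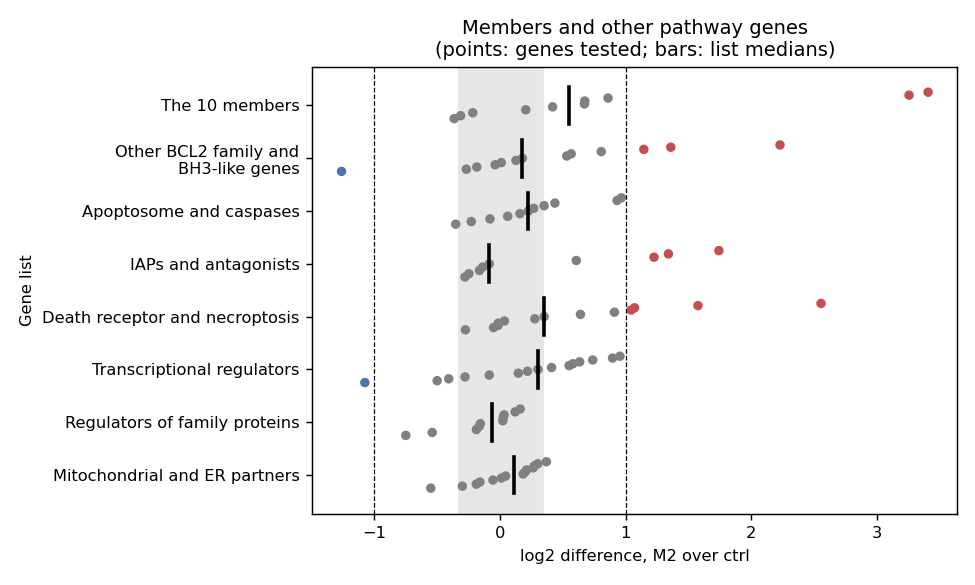
Log2 difference of M2 over ctrl for the 10 members and for each tested gene of the 7 other lists; red points are at least 2-fold higher, blue points at least 2-fold lower, black bars are list medians, and the grey band holds the middle 50% of all genes tested. The points beyond 2-fold lie in the members, the other BCL2 family genes, the IAPs, the death receptor list and, for 1 gene, the transcriptional regulators.

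Among 15 transcription factors and regulators that are known to act on BCL2 family genes, 0 were called higher and 1 lower, with a median of 0.30. Stat5a, a survival factor of the secretory epithelium, had 2186 reads in ctrl and 1091 in M2, which gave a log2 difference of -1.07 (-1.18 to -0.97). Trp53 and its target and inhibitor Mdm2 had differences of 0.41 and 0.63, with 2096 and 2927 and with 2511 and 4093 reads. The genes with the most reads, Stat3 (13071 and 20525 reads) and Atf4 of the integrated stress response (5153 and 7924 reads), had differences of 0.58 and 0.55. Of the 10 genes that act on Mcl1, Bim or Bad proteins, such as the Mcl1 ligase Huwe1 (19930 and 18677 reads) and the Bad-binding protein Ywhaz (21254 and 22743 reads), 0 were called, and the median was -0.06. Of the 14 mitochondrial and endoplasmic reticulum partners, such as Tmbim6 (13546 and 12746 reads) and the calcium channel Itpr3 (5825 and 6171 reads), 0 were called as well, with a median of 0.12.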

How the data were processed

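The authors deposited raw read counts per gene for 2 libraries, with exon coordinates and length, and no normalization was applied to them. The submitters' processing notes name the builds GRCm38 and mm10. Aligner, counter, annotation and strand setting are not given in the sources used here. Of the 10 members, 9 have the same start and end as in GENCODE release M21. The exception is Pmaip1, which runs from 66458533 to 66465565 in that release. In the count table, 26 gene names had become dates and were not named.

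Genes with at least 10 reads over both libraries were analysed (19233). Library sizes were scaled by TMM in edgeR 4.0.16 (R 4.3.3), with factors of 1.02 for ctrl and 0.980 for M2, and CPM and RPKM were computed from the scaled sizes. A log2 difference is that of reads plus a pseudocount of 1. For differences, 95% intervals follow Clopper-Pearson on the M2 part of the reads of a gene, intervals of levels are Poisson intervals (scipy 1.17.1), those of class sums are normal approximations from counting error, and those of ratios come from the conditional odds ratio. For a count of 0 a floor of 3 reads was set, or 0.109 CPM in ctrl and 0.104 CPM in M2. This floor lies below the upper limit of the 95% Poisson interval of such a count. No molecular identifiers are stated. With no replicates, a gene was called at a 2-fold difference, and no test of the conditions was possible. As an alternative, exactTest of edgeR was run with the coefficient of variation set by assumption to 0.2 or 0.4 and Benjamini-Hochberg adjustment over all genes. The functions were checked on simulated data.

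The members and gene lists were chosen with earlier results of these data known. All members were named. Of the 7 other lists, genes at least 2-fold apart with at least 50 reads in 1 library (at most 4 per direction) and the 2 with the most reads were named. A gene that this rule names is not reported here. Of the marker lists the 3 with the most reads were to be named, and further named genes were picked with their values known. The endothelial list (64 and 93 reads in sum) and the fibroblast list (91057 and 76130) served as markers only.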

Additional observations from a re-analysis of the deposited data

How the results depend on the processing

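Pmaip1 stayed beyond the threshold under the 12 alternatives, most of which could hardly move a difference of its size and none of which measures the spread between cultures. Bcl2a1b was not called when 1 CPM was demanded in each library, a filter it cannot pass, or with an assumed coefficient of variation of 0.4, and each of these left 1 member higher. Of 61 recomputed member values 61 kept their sign, and the 2 that left their interval were those of Mcl1. The signs could hardly change, because the largest shift of the median by a scaling was -0.070. The smallest member difference was 0.21, that of Bbc3. In the other pathway lists, 2 genes were higher and 0 lower at a 4-fold threshold, 5 and 0 with the whole interval beyond 2-fold, 5 and 0 with an assumed coefficient of 0.2, and 0 and 0 with 0.4. Over all genes, 1832 were higher and 1504 lower among 19233 tested. The 2 other filters changed the number of genes tested. With at least 1 CPM, 806 were higher and 579 lower among 14594. With at least 1 read, the numbers were 3174 and 4001 among 27074. Among the 19233 genes they were 616 and 494 at 4-fold, and 938 and 679 with the whole interval beyond 2-fold. They were 964 and 691 at 0.2, and 175 and 130 at 0.4. The prosurvival sum was -0.38 with total reads and changed sign to 0.040 without Mcl1. The BH3-only sum was 1.01 in reads and 0.34 without Pmaip1. Leaving out Mcl1 or Pmaip1 was chosen after seeing the data. Depth limits Bcl2a1b and its copies. No paired analysis was possible because ctrl and M2 are single libraries. DESeq2 was not run, as it needs replicates.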
